A study of Mus musculus with 60 samples.

Results

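Homologous recombination and mismatch repair were followed through 8 genes, Brca1, Brca2, Rad51ap1, Chek1, Fancd2, Blm, Exo1 and Msh6, in mouse pancreatic islets in which the transcription factor MYC was switched on or left off. The genes were chosen with earlier results of these data known and were found by symbol. On the array 23 probe sets carry one of these 8 symbols alone, out of 18193 named genes. All 8 genes were among the 13176 tested. For each gene the probe set with the widest interquartile range over the arrays used stands for the gene, and the other 15 are described further down. Values are on a log2 scale and each probe set is centred on its own median over 60 arrays, so that 0 is the median and levels cannot be compared between genes.

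Homologous recombination repairs broken DNA by copying an intact sister strand. Brca1 acts early, where DNA ends are trimmed to single strands, and Brca2 and Rad51ap1 act in the later steps, in which those strands are paired with the template. Mismatch repair removes wrongly paired bases left by replication, and both systems serve dividing cells above all, while beta cells of the adult islet rarely divide.

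All mice were male pIns-MYCERTAM transgenics on a CBA-C57BL/6 background, aged 8 to 12 weeks by one label and 3 months by another. In these mice the insulin promoter drives, in beta cells, MYC fused to a modified oestrogen receptor that is active only with drug bound. In MycON mice the drug was 1 mg of 4-hydroxytamoxifen daily into the peritoneum, while MycOFF mice received peanut oil. Either state was combined with exendin-4, a stable agonist of the GLP-1 receptor, at 50 µg per kg under the skin, given 2 times daily from 2 days before, or with water. No mice without the transgene were given 4-hydroxytamoxifen, so the drug itself and MYC cannot be told apart. Islets were cut by laser from 15 µm frozen sections at 4, 8, 16, 32 and 72 h, and 6 µg of RNA was labelled for an Affymetrix array.

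Of 60 arrays, 8 had been left out by the submitters for poor reproducibility and were left out here too. The 52 used were 12 MycON exendin-4, 13 MycON water, 15 MycOFF exendin-4 and 12 MycOFF water arrays, in 20 groups of 2 or 3 labelled biological replicates. The labels do not tie an array to an animal, so p-values measure the spread between these arrays, and the number of arrays limits the precision. Each array holds RNA of whole islet profiles, in which fewer cells of a type and less RNA per cell cannot be told apart. The mean of 8 beta cell markers lay between -1.19 and 1.10 on MycON arrays used and between -1.02 and 1.39 on MycOFF arrays used, and centred values cannot show whether a marker was absent. Among the arrays left out it was -7.14 to -0.90 in MycON and -6.78 to -2.91 in MycOFF islets.

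The first question was which of the 8 genes differ between MycON and MycOFF islets over both injections and all 5 times. Recombination genes and the checkpoint kinase were higher with MYC on: Rad51ap1, Chek1, Brca1, Blm and Brca2 passed the threshold, an adjusted p under 0.05 from limma fitted across all genes with Benjamini-Hochberg adjustment. That is 5 of 8 genes higher and 0 lower, where 9.93% of all genes tested were called higher, 5.48% lower and 15.4% were called in either direction. The median difference of the 8 was 0.88, against -0.03 over all genes tested. The 8 genes were chosen with earlier results of these data known. Setting their counts beside all genes, here and below, is therefore a description. Fancd2, Exo1 and Msh6 did not pass.

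Brca1, the scaffold protein that promotes trimming of the ends, had a lowest, median and highest value of -0.15, 0.14 and 5.28 in 25 MycON arrays, against -0.19, -0.10 and 0.86 in 27 MycOFF arrays. The MycON values were thus split, with 13 arrays within 0.5 of 0 and 10 above 1, while 26 of 27 MycOFF arrays lay within 0.5 of 0. The 13 include all 5 MycON arrays from 4 h, which lay between -0.15 and -0.01. Over both injections and all times the difference was 1.24 ± 0.26 (SE, limma adjusted p = 8.16e-04), a fold of 2.36. Brca2, which acts once single strands are exposed, spanned -0.49, 0.29 and 2.38 in MycON arrays, against -1.61, -0.14 and 0.91 in MycOFF arrays. Its ranges overlapped and only 6 MycON arrays exceeded 1, for a difference of 0.72 ± 0.19 (adjusted p = 0.00613).

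Rad51ap1, which promotes strand pairing, had the largest difference of the 8 under the setting reported. It spanned -0.72, 1.29 and 4.30 in MycON arrays, against -3.23, -1.35 and 1.49 in MycOFF arrays. A majority of MycON arrays, 14 of 25, exceeded 1, against 2 of 27 MycOFF arrays, and 18 MycOFF arrays lay below -1 where no MycON array did. The difference was 2.79 ± 0.34 (adjusted p = 3.26e-07), a fold of 6.90. Blm, a helicase that takes apart the joined intermediates of recombination, spanned -0.78, 0.55 and 3.81 in MycON arrays, against -0.29, -0.13 and 0.47 in MycOFF arrays. MycOFF arrays stayed close to 0, 10 MycON arrays exceeded 1, and the difference was 1.05 ± 0.20 (adjusted p = 2.49e-04).

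Chek1, the kinase that holds the cell cycle while replication forks are stalled, spanned -0.71, 1.43 and 3.06 in MycON arrays, against -2.71, -0.90 and 0.76 in MycOFF arrays. It exceeded 1 in 15 of 25 MycON arrays, against 0 of 27 MycOFF arrays. The difference was 2.11 ± 0.25 (adjusted p = 1.38e-07), a fold of 4.31. By p Chek1 ranked 41 among the 13176 genes tested and Rad51ap1 ranked 52.

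Fancd2, the protein that marks DNA crosslinks for repair, spanned -0.16, 0.0013 and 1.22 in MycON arrays, against -0.18, 0.02 and 1.11 in MycOFF arrays. Exo1, an exonuclease of both end trimming and mismatch removal, spanned -0.16, -0.0045 and 1.27 in MycON arrays, against -0.19, 0.02 and 0.81 in MycOFF arrays. The ranges of both genes coincided, with 1 MycON array above 1 for each. Their differences were 0.030 ± 0.091 (95% interval -0.16 to 0.22) and -0.0019 ± 0.081 (-0.17 to 0.16), so that under these probe sets a difference above 0.22 lay outside both intervals.

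Msh6, which takes part in recognising mismatched bases, spanned -2.25, 0.31 and 1.92 in MycON arrays, against -2.43, -0.33 and 1.45 in MycOFF arrays. Both states held arrays far above and far below 0. The difference of 0.69 ± 0.26 (95% interval 0.17 to 1.22) had an adjusted p of 0.0644.

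The 5 calls held with each of the 52 arrays left out in turn and without 16 and 72 h, a choice made after the data were seen. Arrays of a group differed widely at other times too. In MycON exendin-4 islets the SD of Brca1 was 2.03 at 32 h, against 1.71 at 16 h, and in MycON water islets it was 1.21 at 8 h. With the 8 excluded arrays put back, Brca2 fell short at 0.47 (adjusted p = 0.118) and the other 4 genes still passed. Msh6 passed with quantile normalization, at 0.71 (adjusted p = 0.0142), with array weights (0.0472), with the stricter filter on spread (0.0488) and without 16 and 72 h, at 0.88 (0.0234).

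**Figure D1:**
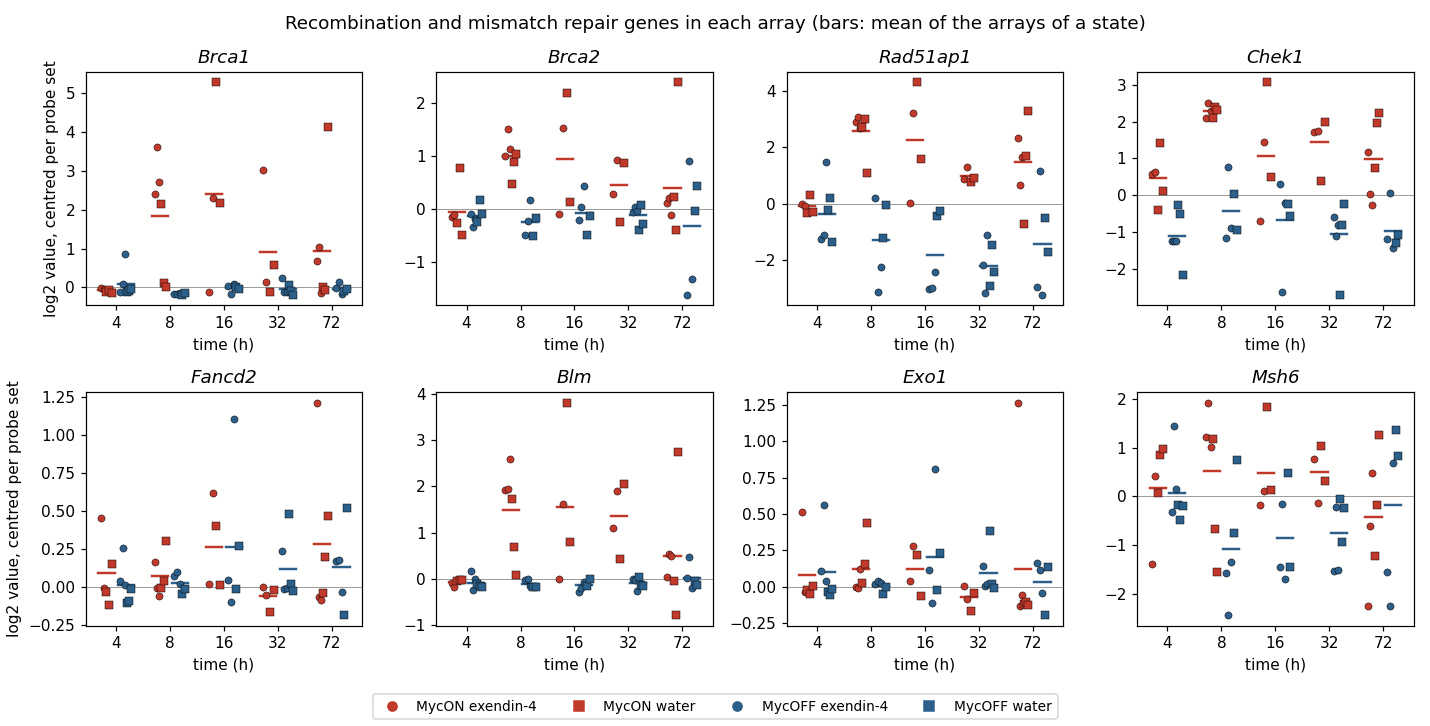
Centred log2 value (y axis) of each gene in each of the 52 arrays against time in hours (x axis, evenly spaced), with MycON in red left of MycOFF in blue, circles for exendin-4, squares for water and bars for the mean of a state. The highest Brca1 value, 5.28, is a MycON water array at 16 h, while all 11 arrays from 4 h lie between -0.15 and 0.86.

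The second question was how the difference runs over time. It was small at 4 h except for Chek1, above 1 at 8 h in 6 genes, of which 4 passed the test, and 2.86 for Rad51ap1 and 2.00 for Chek1 at 72 h, where the calls depended on the setting. At 4 h 0 of 8 genes passed, with 2.29% of all genes tested called in either direction, and 1 of the 8 had an unadjusted p under 0.05, as 12.0% of all genes tested did. This was Chek1, with values from -0.40 to 1.42 and a median of 0.57 in 5 MycON arrays, against -2.17 to -0.28 and a median of -1.25 in 6 MycOFF arrays. Its difference at 4 h was 1.61 ± 0.53 (adjusted p = 0.121), while the other 7 genes lay between -0.16 and 0.29.

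At 8 h Rad51ap1, Chek1, Brca1 and Blm passed, 4 of 8 genes higher where 3.00% of all genes tested were, and 3.93% were called in either direction. Chek1 was even across arrays, at 2.10, 2.49, 2.29, 2.10, 2.40 and 2.32 in MycON islets, against -1.17, 0.76, -0.90, 0.04 and -0.95 in MycOFF islets. The lowest MycON array stood well above the highest MycOFF array, with a difference of 2.73 ± 0.53 (adjusted p = 0.00179). Rad51ap1 had 2.88, 3.06, 2.68, 2.73, 3.02 and 1.09 in MycON islets, against 0.21, -3.13, -2.24, -1.21 and -0.05 in MycOFF islets. Again no MycON array overlapped a MycOFF array, and the difference was 3.75 ± 0.74 (adjusted p = 0.00196), a fold of 13.5.

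Brca1 at 8 h had 2.42, 3.62, 2.71, 2.15, 0.12 and -0.0033 in MycON islets, against -0.17, -0.17, -0.13, -0.19 and -0.14 in MycOFF islets. Here 4 MycON arrays were high and 2, both with water, sat near 0 yet above every MycOFF array. The difference was 2.00 ± 0.56 (adjusted p = 0.0357). Blm had 1.92, 1.95, 2.59, 1.72, 0.69 and 0.08 in MycON islets, against -0.03, -0.0033, -0.16, -0.18 and -0.17 in MycOFF islets. The same 2 water arrays were the lowest for Blm, and the difference was 1.61 ± 0.43 (adjusted p = 0.0253). Brca2 had 0.99, 1.5003, 1.14, 0.46, 0.89 and 1.04 in MycON islets, against -0.48, -0.23, 0.16, -0.51 and -0.17 in MycOFF islets. The groups did not overlap, while the difference of 1.27 ± 0.40 had an adjusted p of 0.0694. With quantile normalization Brca2 (adjusted p = 0.0374) and Msh6 (0.0435) passed at 8 h too, and Brca2 also passed with array weights (0.0129) and with only the arrays compared (0.0110).

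At 4 h every MycON array lay above every MycOFF array for none of the 8 genes and for 2.07% of all genes tested. Without overlap at 8 h were 5 of 8 genes, where 3.29% of all genes tested had every MycON array above every MycOFF array. The Chek1 and Rad51ap1 calls at 8 h held with each array left out. The Brca1 call was lost on leaving out any one of 7 arrays, the highest adjusted p being 0.133 without MycOFF water 8 h replicate 1, and the Blm call on leaving out any one of 5, the highest being 0.10 without the same array. With the 8 excluded arrays put back, neither passed at 8 h (Brca1 1.61, adjusted p = 0.275, and Blm 1.27, 0.307).

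At 16 h, with 4 MycON and 5 MycOFF arrays, 3 of 8 genes were called higher, where 2.06% of all genes tested were and 2.28% were called in either direction. Rad51ap1 had 0.02, 3.21, 4.30 and 1.58 in MycON islets, against -3.01, -2.99, -2.40, -0.42 and -0.27 in MycOFF islets. Brca1 had -0.12, 2.29, 5.28 and 2.19 in MycON islets, against 0.03, -0.18, 0.08, -0.00030 and -0.05 in MycOFF islets. Blm had 0.0033, 1.63, 3.81 and 0.80 in MycON islets, against -0.29, -0.20, -0.06, -0.16 and -0.0058 in MycOFF islets.

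One MycON array, exendin-4 replicate 1, was near 0 for all 3 genes, and another, water replicate 1, was the highest for all 3. The differences at 16 h were 3.85 ± 0.82 for Rad51ap1 (adjusted p = 0.00730), 2.43 ± 0.62 for Brca1 (0.0264) and 1.69 ± 0.48 for Blm (0.0489). Rad51ap1 and Blm did not overlap between the states, where 3.30% of all genes tested had every MycON array above every MycOFF array. These calls rested on single arrays. Without MycON water 16 h replicate 1 the difference was 3.17 for Rad51ap1 (adjusted p = 0.0927), 1.66 for Brca1 (0.232) and 0.94 for Blm (0.362). Without MycON exendin-4 16 h replicate 3 it was 3.06 for Rad51ap1 (0.0747) and 1.83 for Brca1 (0.177), and the Blm call was lost on leaving out any one of 41 of the 52 arrays. None of the 8 passed at 16 h with the 8 excluded arrays put back, with array weights or with only the arrays compared.

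At 32 h 2 of 8 genes were called higher, where 2.36% of all genes tested were and 3.31% were called in either direction. Rad51ap1 had 0.88, 1.29, 0.79 and 0.91 in MycON islets, against a lowest, median and highest value of -3.16, -2.28 and -1.09 in 6 MycOFF arrays. Chek1 had 1.71, 1.75, 0.38 and 1.98 in MycON islets, against -2.71, -0.82 and -0.25 in MycOFF islets. Both genes, and Blm with 1.11, 1.90, 0.42 and 2.04 against a highest MycOFF value of 0.04, did not overlap between the states. Of all genes tested 5.27% had every MycON array above every MycOFF array.

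The differences at 32 h were 3.17 ± 0.78 for Rad51ap1 (adjusted p = 0.0151), 2.51 ± 0.56 for Chek1 (0.00782) and 1.46 ± 0.45 for Blm (0.0703). Without MycON water 32 h replicate 3 Chek1 fell short at 2.11 (adjusted p = 0.0921) and Rad51ap1 at 3.14 (0.0739), and Rad51ap1 also fell short without MycON exendin-4 replicate 2, at 3.07 (0.0731), or MycON water replicate 2, at 3.20 (0.0518). With the mean over probe sets 0 of the 8 passed at 32 h.

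At 72 h the arrays of both states overlapped for all 8 genes. Every MycON array lay above every MycOFF array for 0.395% of all genes tested. Rad51ap1 spanned -0.72, 1.68 and 3.28 in 6 MycON arrays, against -2.95, 1.18, -3.23, -0.49 and -1.69 in MycOFF islets. Chek1 spanned -0.28, 0.95 and 2.24 in MycON arrays, against -1.19, 0.06, -1.43, -1.29 and -1.09 in MycOFF islets. For Chek1 only MycOFF exendin-4 replicate 2 reached the MycON range.

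These were the 2 of 8 genes called higher at 72 h, where 1.15% of all genes tested were and 1.38% were called in either direction. Rad51ap1 differed by 2.86 ± 0.74 (adjusted p = 0.0403) and Chek1 by 2.00 ± 0.53 (0.0477). The call of Chek1 was lost on leaving out any one of 35 of the 52 arrays and that of Rad51ap1 any one of 7, with the highest adjusted p, 0.153 and 0.224, without MycOFF water 72 h replicate 3. Both calls were also lost with the 8 excluded arrays put back (Rad51ap1 0.827 and Chek1 0.963), quantile normalization (0.0727 and 0.0563), the mean over probe sets (0.0655 and 0.155), no filter on spread (0.0595 and 0.0688), array weights (0.0626 and 0.106) and only the arrays compared (0.595 and 0.237).

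A test of whether the MYC effect changes over the 5 times, an F test over its 4 steps, called 0 of the 8 genes, with 1.59% of all genes tested called. By unadjusted p 3 of the 8 were under 0.05, Rad51ap1 (0.0120), Brca1 (0.0305) and Blm (0.0320), where 13.1% of all genes tested were. Between 4 and 8 h the effect grew by 3.46 ± 1.04 for Rad51ap1 (unadjusted p = 0.00217, adjusted p = 0.664), and by 2.16 ± 0.80 for Brca1 (0.0103 and 0.993). No gene of the array passed for this step, while 4.23% of all genes tested and 4 of the 8 had an unadjusted p under 0.05. Msh6 differed by 1.24 ± 0.59 at 32 h and by -0.45 ± 0.56 at 72 h, a step of -1.70 ± 0.81 (unadjusted p = 0.0439, adjusted p = 0.489), for which 0.531% of all genes tested were called.

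**Figure D2:**
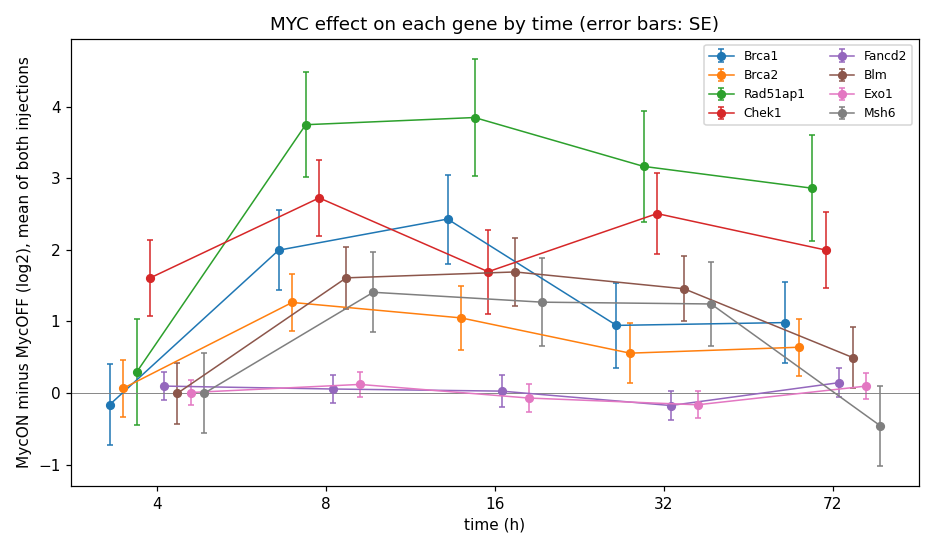
MycON minus MycOFF difference of each gene in log2 units (y axis, mean of both injections, bars show the SE) at 4, 8, 16, 32 and 72 h (x axis, evenly spaced, points shifted sideways for legibility). Rad51ap1 stands at 0.29 at 4 h and between 2.86 and 3.85 afterwards, Chek1 is already at 1.61 at 4 h, and Fancd2 and Exo1 stay between -0.17 and 0.15.

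The third question was whether the difference depends on the injection. The same 4 genes passed within each: Rad51ap1, Chek1, Brca1 and Blm, all higher with MYC on. With exendin-4 this was 4 of 8 genes, where 4.56% of all genes tested were called higher and 5.79% in either direction. The differences with exendin-4 were 3.14 ± 0.47 for Rad51ap1 (adjusted p = 5.47e-05), 1.91 ± 0.34 for Chek1 (4.82e-04), 1.20 ± 0.36 for Brca1 (0.0411) and 0.99 ± 0.28 for Blm (0.0258). With water the share of all genes tested called higher was 3.94%, and 5.59% in either direction. The differences with water were 2.43 ± 0.49 for Rad51ap1 (adjusted p = 0.00184), 2.31 ± 0.35 for Chek1 (7.12e-05), 1.28 ± 0.38 for Brca1 (0.0371) and 1.11 ± 0.29 for Blm (0.0158).

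Brca2 had nearly equal differences, 0.69 ± 0.26 with exendin-4 (adjusted p = 0.111) and 0.74 ± 0.27 with water (0.103). The difference of Msh6 was 0.99 ± 0.36 with exendin-4 (adjusted p = 0.0991), against 0.39 ± 0.37 with water (0.697). The interaction of MYC and exendin-4, the difference between these differences, called 0 of 13176 genes by limma, with 1.90% of them and 0 of the 8 under an unadjusted p of 0.05. Its 95% interval ran from -0.68 to 2.09 for Rad51ap1 and from -1.40 to 0.60 for Chek1. It ran from -1.13 to 0.98 for Brca1 and from -0.45 to 1.65 for Msh6. Each interval holds 0, and a difference between the injections of any size within it is compatible with these arrays.

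The Brca1 calls within one injection depended on single arrays. With exendin-4 the call was lost on leaving out any one of 16 of the 52 arrays, with a highest adjusted p of 0.162 (0.91) without MycON exendin-4 32 h replicate 1, and with water any one of 10, with a highest of 0.156 (0.97) without MycON water 16 h replicate 1. With water the difference was 0.40 (adjusted p = 0.581) when 16 and 72 h were left out, against 1.45 (0.00622) with exendin-4. Blm fell short with exendin-4 without MycON exendin-4 16 h replicate 3, at 0.83 (adjusted p = 0.0892), or 32 h replicate 2, at 0.91 (0.0682), and with water without MycON water 16 h replicate 1, at 0.81 (0.0837), or 32 h replicate 3, at 0.95 (0.0665). With the 8 excluded arrays put back, Chek1 alone of the 8 passed with water, at 1.73 (adjusted p = 0.00944), and Rad51ap1 was at 1.68 (0.0846), Brca1 at 0.63 (0.594) and Blm at 0.45 (0.68).

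Tests of each injection within single times were added after the data were seen. At 4, 16, 32 and 72 h 0 of the 8 were called with either injection, with no share of all genes given. At 16 h the Brca1 effect with exendin-4 minus that with water was -2.65 ± 1.24 (limma unadjusted p = 0.0406, not called). Brca1 differed there by 1.11 with exendin-4 and 3.76 with water, and Blm by 1.00 and 2.39. Rad51ap1 went the other way, at 4.41 and 3.29. At 8 h with exendin-4, 5 of 8 genes were called, Rad51ap1, Brca1, Chek1, Blm and Msh6, where 1.36% of all genes tested were called in either direction. Msh6 had 1.21, 1.92 and 1.02 in MycON exendin-4 islets, against -1.58, -2.43 and -1.35 in MycOFF exendin-4 islets. The groups stood apart, and the difference was 3.17 ± 0.75 (adjusted p = 0.0205). With water 0 of the 8 were called at 8 h, where 0.25% of all genes tested were. Msh6 there had 1.17, -0.67 and -1.56 in MycON water islets, against -0.74 and 0.75 in MycOFF water islets, and these groups overlapped. The Msh6 effect at 8 h with exendin-4 minus that with water was 3.52 ± 1.12 (unadjusted p = 0.00336, adjusted p = 0.975), and 0 genes of the array passed for that difference. The Msh6 call at 8 h with exendin-4 was lost on leaving out any one of 5 of the 6 arrays compared, with a highest adjusted p of 0.102. The other calls at 8 h with exendin-4 were lost on leaving out any one of 5 arrays for Brca1 and for Chek1, 6 for Blm and 2 for Rad51ap1. With the 8 excluded arrays put back all 5 were lost, at adjusted p = 0.0653 for Rad51ap1, 0.103 for Msh6, 0.169 for Brca1, 0.195 for Chek1 and 0.27 for Blm, and with no filter on spread Chek1 (0.0594) and Blm (0.0567) were.

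The exendin-4 effect itself called none of the 8 genes in either state. In MycON islets the 8 differences, exendin-4 minus water, ran from -0.40 for Chek1 to 0.14 for Exo1 with 0.0683% of all genes tested called, and 0 of the 8 had an unadjusted p under 0.05, where 6.69% of all genes tested did. In MycOFF islets they ran from -0.90 for Msh6 to 0.11 for Exo1, with 0.228% of all genes tested called. Msh6 was the 1 gene of the 8 with an unadjusted p under 0.05 there (-0.90 ± 0.36, unadjusted p = 0.0164, adjusted p = 0.491), and 7.66% of all genes tested were. Rad51ap1 differed by -0.77 ± 0.47 (95% interval -1.73 to 0.19) in MycOFF islets.

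Several of the genes were high on the same MycON arrays, and on other MycON arrays none was. The number of the 8 genes above 1 was 0 on 6 MycON arrays, 1 on 4, 2 on 4, 3 on 3, 4 on 1, 5 on 3 and 6 on 4. On MycOFF arrays it was 0 on 22 and 1 on 5, so that 11 of 25 MycON arrays and 0 of 27 MycOFF arrays held at least 3. Of the 6 MycON arrays with 0, those from 4 h were exendin-4 replicates 1 and 2 and water replicates 1 and 3. The others were exendin-4 16 h replicate 1 and water 72 h replicate 1. The share of all genes tested above 1 had a median of 7.78% (3.38% to 14.0%) on MycON arrays. On MycOFF arrays that median was 5.95% (2.54% to 13.1%). The 4 arrays with 6 genes were MycON exendin-4 8 h replicates 2 and 3, MycON water 16 h replicate 1 and MycON water 72 h replicate 3. Within the 72 h water group the 3 arrays differed widely: Brca1 had 0.00030, -0.08 and 4.14, and Blm -0.05, -0.78 and 2.75.

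Across the 20 group means each gene was set against the mean of the other 7, as a description of means that share arrays and times. Pearson's r was 0.91 for Blm, 0.89 for Brca2, 0.89 for Rad51ap1, 0.86 for Brca1 and 0.84 for Chek1. It was 0.57 for Msh6, -0.0096 for Fancd2 and -0.14 for Exo1. By the same measure the 5 genes of the array most like the mean of all 8 were Tcf19 (0.96), Fen1 (0.95), Atad2 (0.95), Fbxo5 (0.95) and Fignl1 (0.95). Fen1 trims flaps of newly copied DNA and Fbxo5 restrains the anaphase-promoting complex. Genes chosen for this likeness share the MYC difference of the group means by choice, so their differences are a description: they ran from 1.25 ± 0.29 for Fbxo5 to 2.31 ± 0.35 for Tcf19.

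Markers of other cells that an islet section can hold were read on the same arrays. Of 10 macrophage markers 8 were higher in MycON islets over both injections and all times, where 9.93% of all genes tested were, none at 8 h (3.00% of all genes) and 7 at 72 h (1.15%). The mean of the 10 ran from -1.08 to 3.61 on MycON arrays, against -1.69 to 0.55 on MycOFF arrays. On the 4 MycON arrays with 6 repair genes above 1 it lay between -0.73 and -0.22, and the mean of 11 lymphoid markers lay between -0.16 and -0.05 there. Of the lymphoid markers 4 could be tested and 1 was higher over both injections and all times, and 3 of 8 beta cell markers were lower. The part of these cells in the repair genes was not tested beyond these values.

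**Figure D3:**
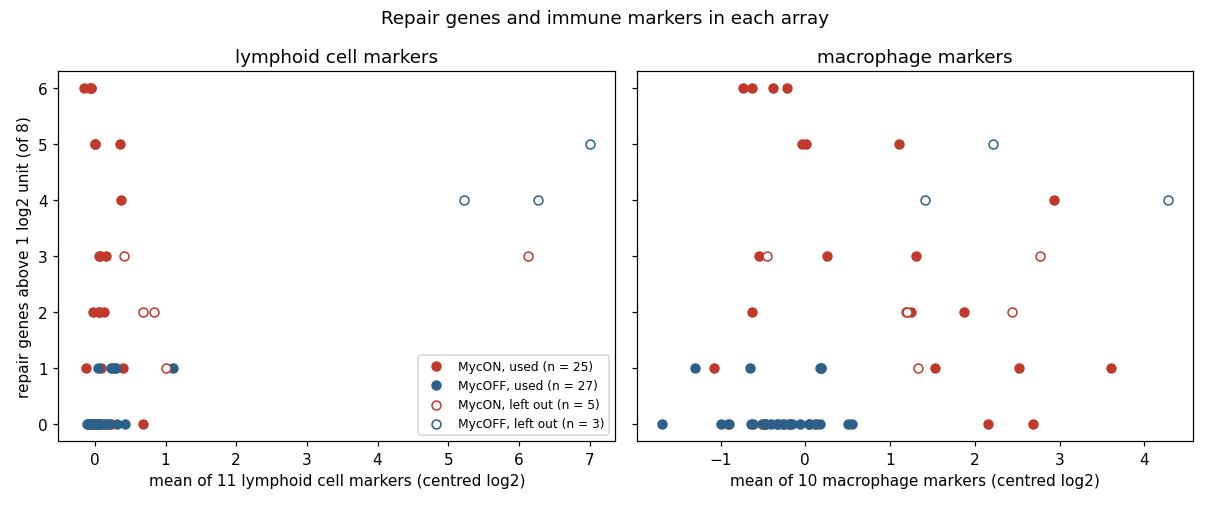
Number of the 8 repair genes above 1 log2 unit (y axis) against the mean centred log2 value of lymphoid (left) or macrophage (right) markers (x axes) on each array, with MycON in red, MycOFF in blue, filled circles for arrays used and open circles for arrays left out. The 4 used arrays with 6 genes lie at or below -0.05 on the lymphoid axis, while 4 left-out arrays lie above 5.

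Probe sets of one gene did not all show the same. Of the 23, Brca2, Blm and Msh6 have 1 each, 16 passed the filter on spread and 15 do not stand for their gene. A probe set picked for its wide spread over MycON and MycOFF arrays together is more likely to be one that differs, so all were fitted at once, with p adjusted over 45037 probe sets, of which 6.48% were called. Of the 15 others 2 passed, Rad51ap1 1448899_s_at at 1.36 ± 0.23 (adjusted p = 1.54e-04) and Chek1 1450677_at at 0.47 ± 0.11 (0.00596). The remaining probe sets of Rad51ap1 differed by 0.31 and 0.0047 and those of Chek1 by 0.36, 0.11 and -0.06. The other 3 of Brca1 differed by -0.06, -0.02 and -0.0056. With the mean over all probe sets of a gene in place of one, Brca1 differed by 0.29 (adjusted p = 0.00267), Rad51ap1 by 1.12 (7.24e-07) and Chek1 by 0.60 (5.21e-06).

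For Fancd2 and Exo1 the probe sets disagreed in another way. Fancd2 1439091_at, with an interquartile range of 0.0773 under the filter of 0.101, was flat on most arrays but reached 3.46 on MycON water 72 h replicate 3, 3.01 on MycON water 16 h replicate 1 and 1.87 on MycON exendin-4 16 h replicate 3. Its highest MycOFF value was 0.11, and it differed by 0.43 ± 0.18 (adjusted p = 0.178). Exo1 1418026_at, with an interquartile range of 0.0993, reached 2.20 on the same 16 h array and had a highest MycOFF value of 0.42, for a difference of 0.27 ± 0.10 (adjusted p = 0.123). The probe sets standing for Fancd2 and Exo1 had 0.41 and 0.22 on that 16 h array.

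**Figure D4:**
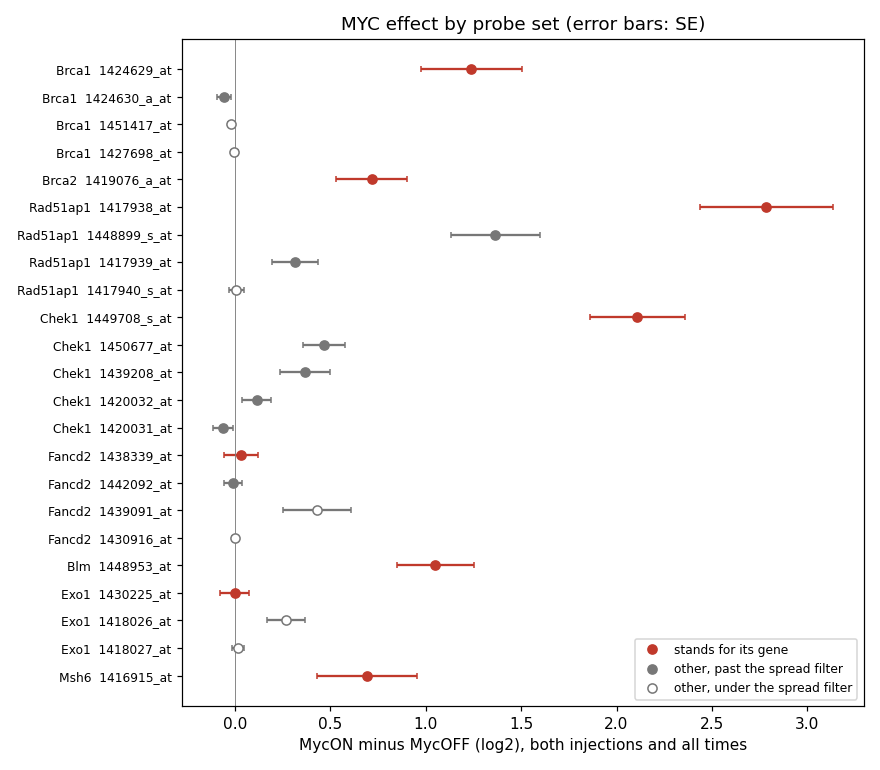
MycON minus MycOFF difference in log2 units over both injections and all times (x axis, bars show the SE) for each of the 23 probe sets (y axis), red for the one that stands for its gene, grey for others, open where the spread was under the filter. The Rad51ap1 probe sets run from 0.0047 to 2.79 and those of Chek1 from -0.06 to 2.11.

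Promoters of 6 of the 8 genes were in the RefSeq table for build GRCm38.p6, as 250 bases before and 50 after an annotated start, which need not be the outermost. They were read because genes that move together are often set beside the motifs of MYC, of E2F factors that drive replication genes, and of the CHR element of late cell cycle genes. The MYC motif CACGTG was in 0 of the 6 on either strand, where 7.15% of 32851 promoters hold it. The E2F-type cores TTTCCCGC, TTTGGCGC, TTTCGCGC, TTTGCCGC and TTTCCCGG were in 2 of the 6, Brca2 and Msh6, where 3.48% of promoters hold one. The CHR-type motifs TTTGAA and TTCGAA were in 0 of the 6, where 19.2% hold one. The letters GGCGGGAA, added after the sequences were seen, were in 3 of the 6, Rad51ap1, Chek1 and Msh6, a count that this choice fixes, and 2.19% of promoters hold them. In Msh6 they overlap the E2F-type core.

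The stretches with a match are shown for the 4 promoters that hold one. Each runs 5′ to 3′ on the strand of its gene, with the matched letters in capitals. Rad51ap1 and Chek1 match only the letters added after the sequences were seen. Rad51ap1 at chr6:126939558-126939587 (minus strand) and Chek1 at chr9:36726609-36726638 (minus strand), carry those 8 letters 12 and 43 bases after the start. Brca2 is read at chr5:150522442-150522471 (plus strand), where the match lies on the opposite strand, and Msh6 at chr17:87975054-87975083 (plus strand). The Brca2 match is at position -168 from the start used, which is not the outermost. The Brca2 gene is annotated from 150522297, so this stretch lies inside it. For Rad51ap1 the start used also lies inside the annotated gene, which runs to 126939621.
Rad51ap1: gtctggttttcGGCGGGAAttgaaaccgcc
Chek1: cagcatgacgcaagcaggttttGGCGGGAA
Brca2: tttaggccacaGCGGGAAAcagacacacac
Msh6: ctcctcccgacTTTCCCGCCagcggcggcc

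Brca1 and Blm held none of these letters in the window, though both were higher with MYC on. The 100 bases before the outermost annotated start are shown for them, Brca1 at chr11:101551956-101552055 and Blm at chr7:80535149-80535248, both on the minus strand. A match describes letters in a window and is no evidence of binding, and the absence of a match says only that the letters are not there.
Brca1: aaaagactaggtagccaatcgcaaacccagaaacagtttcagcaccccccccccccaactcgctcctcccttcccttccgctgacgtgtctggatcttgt
Blm: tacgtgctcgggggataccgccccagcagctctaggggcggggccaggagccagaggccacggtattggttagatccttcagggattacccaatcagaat

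Other genes of the same pathways were read from lists, of which the 8 genes are not part. Their counts over both injections and all times stand beside the 9.93% of all genes tested that were called higher and the 5.48% called lower, so that 1 of 7 or 1 of 11 higher is near that share. Of 17 further homologous recombination genes tested, 4 were higher and 1 lower in MycON islets, with a median of 0.15, against -0.03 over all genes tested. Higher were Dna2 (1.09 ± 0.18, adjusted p = 3.43e-05), a nuclease of end trimming, Rad54l (0.74 ± 0.17, 0.00259), a motor protein that aids strand exchange, and Mre11a (0.62 ± 0.13, 6.95e-04) and Rad50 (0.58 ± 0.15, 0.00477), which bind broken ends together. The lower one was Mus81 (-0.57 ± 0.19, adjusted p = 0.0320), a nuclease that cuts joined strands, named here after its value was seen.

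In the Fanconi anaemia pathway, which repairs crosslinks, 3 of 8 genes were higher and 0 lower, with a median of 0.31. They were Usp1 (1.18 ± 0.20, adjusted p = 4.78e-05), which removes ubiquitin from Fancd2, Ube2t (0.82 ± 0.19, 0.00194), which helps to attach it, and Fancm (0.35 ± 0.10, 0.0158), a DNA translocase. Of 4 mismatch repair genes other than Msh6 and Exo1, Pms2 (0.59 ± 0.14, adjusted p = 0.00267), which acts after a mismatch is recognised, was higher, and Msh3, Mlh3 and Pms1 differed by 0.28, 0.070 and 0.12 without passing.

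Around Chek1, 11 of 17 replication checkpoint genes were higher and 0 lower, with a median of 0.75. Among them were Rpa2 (1.72 ± 0.19, adjusted p = 7.69e-08), which coats single strands, Atr (1.14 ± 0.14, 5.23e-07), the kinase that activates Chek1, and Topbp1 (1.89 ± 0.26, 3.11e-06), which activates Atr. Cdc25a, a phosphatase that Chek1 holds back, differed by 0.75 ± 0.11 (adjusted p = 7.22e-06).

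Genes of 3 other repair systems were counted in the same way. Of 7 genes of non-homologous end joining 1 was higher and 0 lower, Xrcc6 (0.58 ± 0.18, adjusted p = 0.0215), with a median of -0.12. Of 11 base excision repair genes 1 was higher and 0 lower, Ung (2.16 ± 0.24, adjusted p = 6.71e-08), which removes uracil from DNA, with a median of 0.07. Of 12 nucleotide excision repair genes 0 passed in either direction, with a median near 0 and values from -0.31 to 0.47. No test compared one list with another.

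Replication licensing and mitosis genes give the frame of the cell cycle. All 12 licensing and MCM genes tested were higher, with a median of 1.77, among them Cdt1 (3.67 ± 0.31, adjusted p = 1.46e-10), Orc6 (1.18 ± 0.12, 1.38e-08), Mcm6 (2.70 ± 0.29, 2.70e-08) and Mcm7 (1.65 ± 0.18, 3.76e-08). Of 18 mitosis genes 14 were higher and 0 lower, with a median of 0.95, among them Cdca8 (2.35 ± 0.34, adjusted p = 5.58e-06), Birc5 (1.41 ± 0.23, 3.20e-05), Cdk1 (1.498 ± 0.28, 1.90e-04) and Bub1b (1.65 ± 0.32, 3.67e-04).

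By time the lists differed in their counts, where 1.58%, 3.00%, 2.06%, 2.36% and 1.15% of all genes tested were called higher at 4, 8, 16, 32 and 72 h. Licensing genes called higher numbered 1, 11, 6, 10 and 4 of 12 at 4, 8, 16, 32 and 72 h, and mitosis genes 0, 3, 14, 0 and 4 of 18. Replication checkpoint genes numbered 2, 8, 5, 4 and 0 of 17, and the 8 repair genes 0, 4, 3, 2 and 2. The counts of the repair genes and of the licensing genes were highest at 8 h, that of the mitosis genes at 16 h, and the difference in timing between lists was not tested. The median difference of the 8 repair genes was 1.51 at 8 h and 1.48 at 16 h, so counts of 4 and 3 do not place a peak.

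**Figure D5:**
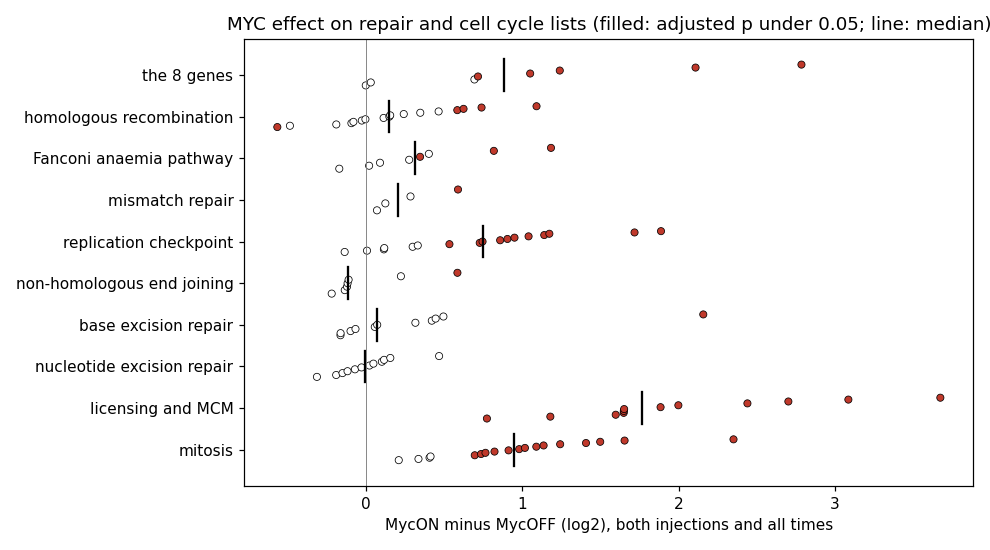
MycON minus MycOFF difference in log2 units over both injections and all times (x axis) for each tested gene of a list (rows), red where the adjusted p is under 0.05, with a vertical line at the list's median. All 12 licensing genes are filled, 11 of 17 checkpoint genes are, and none of 12 nucleotide excision repair genes is.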

How the data were processed

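Islet RNA was measured on 60 arrays. The deposited values are log2 values that the authors centred on each probe set's median. Per the submitters' processing notes MAS5 and GCRMA are named with no role or version, and base 2 is inferred from the range (-12.3 to 12.8). Gene symbols came from the platform annotation: 34945 probe sets have 1 symbol, 932 several and 9160 none. Probe sets in the lowest 40 percent of spread were dropped, and the one with the widest interquartile range stood for its gene. One limma (3.58.1, R 4.3.3) model of 20 group means with empirical Bayes gave each difference, and Benjamini-Hochberg adjustment ran over 13176 genes. It was tested on simulated data. The 8 genes and all lists were chosen with earlier results of these data known. From each pathway list the text names up to 4 genes with the smallest p past the threshold. Same-numbered MycON and MycOFF replicates did not deviate together (median correlation -0.0847 over 22 pairs), so the main model has no block. No replicate pair was near identical: the SD of gene differences was 0.555 to 1.42 over 44 pairs. Alternatives were all 60 arrays, a replicate block, quantile normalization, the mean over probe sets, other spread filters, array weights, only the arrays compared, and each array left out. After the data were seen, a fit without 16 and 72 h, a fit of all probe sets at once and tests of each injection within single times were added.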

Additional observations from a re-analysis of the deposited data

Results flagged for a closer look

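The 8 arrays left out by the submitters each held repair genes above the highest MycOFF array used. Many other genes were high there too. The share of all genes tested above 1 was 15.6% to 22.6% on the left-out MycOFF arrays. It was 11.7% to 25.8% on the left-out MycON arrays and at most 14.0% on arrays used. The share of all genes above the highest MycOFF array used was not counted. The MycOFF arrays among the 8 had more such repair genes than most MycON ones: 5 on MycOFF water 8 h replicate 2, 3 on MycOFF water 16 h replicate 1 and 4 on MycOFF water 72 h replicate 2. On these 3 arrays the mean of 11 lymphoid markers was 7.001, 6.27 and 5.22, against at most 1.11 on any MycOFF array used, and the mean of the beta cell markers was -4.70, -6.78 and -2.91. The MycON array exendin-4 4 h replicate 3 had 3 such genes, Brca1, Blm and Msh6, with a lymphoid mean of 6.12. The other 4 left-out MycON arrays, exendin-4 16 h replicate 2, exendin-4 32 h replicate 3, water 16 h replicate 3 and water 32 h replicate 1, had 2 each. On 3 of those 4 the stromal marker mean was above 5. The part of these other cells in the repair gene values was not tested.

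At 4 h, for 2 genes, every MycON array lay below the MycOFF mean with exendin-4 and above it with water. These MycON groups held only 2 arrays with exendin-4 and 3 with water. The share of all genes with such a pattern was not counted. Blm differed by -0.12 with exendin-4 and by 0.11 with water, a difference of -0.2257. Msh6 differed by -0.91 with exendin-4 and by 0.91 with water, a difference of -1.8208. By limma the Msh6 difference of -1.82 ± 1.12 had an unadjusted p of 0.113, that of Blm was 0.795, and 0 genes of the array passed for it.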

How the results depend on the processing

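Groups of 2 or 3 arrays limit every value, and centred values hold no level. With a replicate block 2031 genes and 5 of the 8 passed over both injections and all times, and the 8 h count stayed at 4, but at 72 h 0 of the 8 passed, Chek1 at 8 h with exendin-4 fell short (adjusted p = 0.0511) and the genes called for exendin-4 in MycON islets became 15. With all 60 arrays the genes called were 1073 over both injections, 177 with water, 87, 202, 50, 138 and 8 at the 5 times, 17 for the change over time, and 6 and 3 for exendin-4 in MycOFF and MycON islets, and of the 8 genes 1 passed with water, 2 at 8 h, 0 at 16 h, 1 at 32 h and 0 at 72 h. With quantile normalization the genes called were 1162 with water, 575 at 4 h, 817 at 8 h, 1112 at 32 h, 356 for the change over time, and 49 and 18 for exendin-4, and of the 8 genes 1 passed at 4 h, 1 at 16 h and 0 at 72 h. With the mean over probe sets 323 genes changed over time and 49 were called for exendin-4 in MycOFF islets, and 0 of the 8 passed at 32 h or 72 h. With no filter on spread 17 genes were called for exendin-4 in MycOFF islets and 0 of the 8 passed at 72 h. With array weights the genes called were 659, 1210, 67, 1709 and 296 at the 5 times, 380 for the change over time and 48 for exendin-4 in MycON islets, and of the 8 genes 0 passed at 16 h, 0 at 72 h and 1 for the change over time. With only the arrays compared the genes called were 302 at 8 h, 4 at 16 h, 4 at 72 h and 11 for exendin-4 in MycOFF islets, and of the 8 genes 2 passed with water, 0 at 16 h and 0 at 72 h. With all probe sets fitted at once 2 of the 8 passed with exendin-4. The causes were not tested. Over both injections and all times, probe sets opposite in sign to a called gene were Chek1 1420031_at (-0.063) and Brca1 1424630_a_at (-0.060), 1427698_at (-0.0056) and 1451417_at (-0.021). Leaving out each array in turn gave 1730 to 2247 genes and 5 to 6 of the 8 over both injections, 496 to 839 and 2 to 5 with water, 505 to 894 and 2 to 5 with exendin-4, 199 to 357 and 0 to 0 at 4 h, 214 to 600 and 2 to 5 at 8 h, 65 to 688 and 0 to 4 at 16 h, 181 to 501 and 0 to 3 at 32 h, 67 to 350 and 0 to 2 at 72 h, 161 to 314 and 0 to 1 for the change over time, 11 to 45 and 3 to 27 genes for exendin-4 in MycOFF and MycON islets, and 0 to 2 genes for the interaction.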
